A study of Homo sapiens with 8 samples.

Results

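NEK6, ADAM8, INPP4A, GLCCI1 and PLEK are 5 genes whose transcripts were below DMSO-treated cells on most arrays after L363 myeloma cells received the IKKβ inhibitor MLN120B. They were chosen by earlier results on these same ratios, so each ratio against DMSO is given as a description with no test. The array annotation assigns 9 features to them, of 15246 features in all, and the genes are 5 of 4604 named genes on the arrays. NEK6 (Entrez 10783), ADAM8 (Entrez 101), INPP4A (Entrez 3631) and PLEK (Entrez 5341) have 2 features each, and GLCCI1 (Entrez 113263) has 1.

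L363 is an established human plasma cell line, labelled as multiple myeloma from bone marrow. Cells received 12.5 µM MLN120B at 37 °C for 8 h (2 samples), 12 h (3 samples) or 24 h (3 samples), and their Cy5-labelled cDNA was hybridised on 8 arrays, each against Cy3-labelled cDNA from L363 cells given DMSO, the solvent. All groups share the line, the dose and this control, and the labels state no age of the DMSO culture. A value is the log2 ratio of the 2 channels centred on the array's median, likely MLN120B over DMSO: the labels give the dyes but not the direction of the ratio, and with the sign turned every direction below would turn. No array had exchanged dyes, so a dye bias of a feature and the treatment cannot be told apart. The values hold no level of a transcript in either channel, so the labelled cell type could not be checked against the levels of its markers. The labels leave unsaid whether each sample was its own culture; if not, the p-values reflect technical spread alone. In these bulk samples, fewer cells with a transcript and less transcript per cell cannot be told apart.

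The arrays differed widely in the spread of their ratios. Database numbers in the labels fall into 3 groups of nearby numbers, called runs here, a grouping that the labels do not state. These are run 1 (sample 3 at 12 h and 24 h) and run 2 (sample 2 at 8 h, sample 1 at 12 h and 24 h). The last is run 3 (sample 1 at 8 h, sample 2 at 12 h and 24 h). The SD over features was 1.00 to 1.42 in run 2, 0.35 to 0.58 in run 1 and 0.21 to 0.28 in run 3, and arrays held between 6344 and 13007 feature values. A ratio of a given size is therefore common on a run 2 array and rare on a run 3 array, and each gene is also given below by its rank within the array. The number of arrays limits the precision.

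IKKβ marks the IκB inhibitors for destruction, which frees NF-κB dimers to enter the nucleus and bind κB sites near their target genes. Active NF-κB signalling is common in myeloma. The 5 genes act at different points of cell signalling: ADAM8 is a membrane-anchored metalloprotease of leukocytes, INPP4A removes a phosphate from membrane phosphoinositides, PLEK encodes pleckstrin, the main protein kinase C substrate of platelets and leukocytes, NEK6 is a kinase of the NIMA family that acts in mitosis, and GLCCI1 was named as a transcript induced by glucocorticoids. PLEK also belongs to the NF-κB signature of the study's own paper, which was drawn up in part on these arrays.

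IKKβ acts on transcription through κB sites. The 250 bases before each annotated start of the 5 genes were therefore searched for a κB consensus on both strands (RefSeq, GRCh38.p14). The pattern read GGG, then A or G, 2 bases of any kind, 2 that are C or T, and CC. The counts of matches below hold for this pattern only. All 5 genes matched entries in the promoter table, with 5 windows for NEK6, 2 for INPP4A and 1 each for ADAM8, GLCCI1 and PLEK. Matches occurred in 2 of the 5 windows of NEK6 and in none of the windows of the other 4 genes. The window shown first lies on the plus strand at chr9:124291714-124291963, before a NEK6 transcript that starts at 124291964, and it is shown because it holds 2 separate matches. Beside it stand the windows of NFKBIA (minus strand, chr14:35404750-35404999) and TNFAIP3 (plus strand, chr6:137867009-137867258), well-known NF-κB targets, and of PLEK (plus strand, chr2:68365032-68365281), which holds no match. Each is written 5′ to 3′ along the gene, with matches in capitals.
NEK6: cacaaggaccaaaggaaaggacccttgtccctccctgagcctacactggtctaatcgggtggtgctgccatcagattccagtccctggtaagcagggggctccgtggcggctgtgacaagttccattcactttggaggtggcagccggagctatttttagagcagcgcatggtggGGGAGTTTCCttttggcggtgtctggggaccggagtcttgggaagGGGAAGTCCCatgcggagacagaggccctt
NFKBIA: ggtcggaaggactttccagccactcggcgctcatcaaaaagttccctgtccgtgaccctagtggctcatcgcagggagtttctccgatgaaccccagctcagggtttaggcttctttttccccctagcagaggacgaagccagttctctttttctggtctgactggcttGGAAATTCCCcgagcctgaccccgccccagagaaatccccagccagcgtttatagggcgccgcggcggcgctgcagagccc
TNFAIP3: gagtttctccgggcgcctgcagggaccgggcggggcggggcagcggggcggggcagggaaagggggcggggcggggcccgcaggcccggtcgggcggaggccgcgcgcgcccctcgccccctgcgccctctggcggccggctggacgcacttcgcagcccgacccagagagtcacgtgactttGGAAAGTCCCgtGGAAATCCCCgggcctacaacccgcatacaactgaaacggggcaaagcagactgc
PLEK: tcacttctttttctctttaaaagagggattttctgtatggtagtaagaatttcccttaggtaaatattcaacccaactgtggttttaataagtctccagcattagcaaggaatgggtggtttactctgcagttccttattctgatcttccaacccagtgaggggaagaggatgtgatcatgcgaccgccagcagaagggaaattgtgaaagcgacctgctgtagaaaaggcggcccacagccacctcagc

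Counted back from the NEK6 start, the matches span positions -75 to -66 and -30 to -21, and the second reads as a match on both strands. The other NEK6 window with a match lies at chr9:124257699-124257948 and holds 1 GC-only match, which also reads on both strands. Among all 35116 windows of this length 9.96% hold at least 1 match, and among the 134 genes with 5 windows 40.3% hold one in some window. For ADAM8 (minus strand, chr10:133276869-133277118), GLCCI1 (chr7:7968546-7968795) and the 2 INPP4A windows (chr2:98444337-98444586 and chr2:98444608-98444857), these letters were not found. A match is a description of letters in the window, and no array feature here measures binding.

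NEK6 was lower in MLN120B-treated cells on every array. Its log2 ratios were -0.14 and -0.54 in samples 1 and 2 at 8 h, -1.02, -0.48 and -0.70 in samples 1, 2 and 3 at 12 h, and -0.83, -0.63 and -0.91 in samples 1, 2 and 3 at 24 h. Sample 1 at 8 h lies above all later samples, sample 2 at 8 h lies among them, and the 24 h samples lie close together. The mean over the 3 times was -0.62 ± 0.13 (SE, n = 8), a ratio of 0.649 to DMSO, with time means of -0.34 ± 0.28 (SD, n = 2), -0.74 ± 0.27 (SD, n = 3) and -0.79 ± 0.14 (SD, n = 3). NEK6 stood among the lowest 0.922% of rows in sample 2 at 24 h, 1.22% in sample 3 at 24 h and 2.10% in sample 2 at 12 h, and among the lowest 21.3% or less on all 8 arrays. Run means were -0.80 in run 1, -0.80 in run 2 and -0.42 in run 3.

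The features 16637_1 and 28224_1 both point to NEK6 transcript NM_014397 and gave like values on most arrays. At 24 h they read -0.45 and -0.81 in sample 2 and -0.92 and -0.90 in sample 3. They parted in sample 2 at 8 h, at -1.18 for the first and 0.09 for the second, the only NEK6 feature value above 0. On their own their means over the 3 times were -0.71 ± 0.17 (SE, n = 8) and -0.53 ± 0.14 (SE, n = 7).

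ADAM8 was below 0 on all 8 arrays, at sizes that varied within each time. Its ratios were -0.26 and -0.82 in samples 1 and 2 at 8 h, -0.21, -0.65 and -0.42 in samples 1, 2 and 3 at 12 h, and -0.38, -0.75 and -0.45 in samples 1, 2 and 3 at 24 h. The ranges of the 3 times overlap. The mean over the 3 times was -0.50 ± 0.13 (SE, n = 8), a ratio of 0.708, and run means were -0.44, -0.47 and -0.55 in runs 1, 2 and 3. In the narrow run 3 ADAM8 lay among the lowest 0.636% of rows at 12 h and 0.390% at 24 h, whereas in the wide run 2 its rank was 40.1% at 12 h and 32.1% at 24 h.

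Both ADAM8 features, 36562_1 and 37237_1, were below 0 on all 8 arrays. They stood furthest apart in sample 2 at 8 h, at -1.44 and -0.20, the same array on which the NEK6 features parted. Without that sample the ADAM8 mean was -0.40. The feature means were -0.54 ± 0.16 and -0.45 ± 0.13 (SE, n = 8).

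INPP4A was below 0 on every array, but its size was set by run 2. Its ratios were -0.03 and -1.13 in samples 1 and 2 at 8 h, -5.49, -0.21 and -0.58 in samples 1, 2 and 3 at 12 h, and -2.36, -0.31 and -0.41 in samples 1, 2 and 3 at 24 h. The 3 lowest values are the 3 arrays of run 2, whose mean was -2.99, against -0.49 in run 1 and -0.18 in run 3. The mean over the 3 times, -1.23 ± 0.56 (SE, n = 8), became -0.67 without sample 1 at 12 h and -0.26 without run 2, while the median of the 8 arrays was -0.49, a ratio of 0.710. By rank INPP4A was among the lowest 0.490% and 0.917% of rows in run 2 at 12 h and 24 h, and at 41.1% in sample 1 at 8 h. One feature, 34874_1, carries these values. The other, 24063_1, had a value only in sample 3 at 24 h, where it read -0.40 and 34874_1 read -0.42.

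GLCCI1 was highest at 8 h and lowest at 12 h. Its ratios were -0.04 and 0.45 in samples 1 and 2 at 8 h, -1.82, -0.26 and -1.41 in samples 1, 2 and 3 at 12 h, and -0.67, -0.55 and -0.14 in samples 1, 2 and 3 at 24 h. Both 8 h samples lie above all 6 later ones, at the closest -0.04 against -0.14, and the 12 h and 24 h samples overlap. The share of all rows that part in this way was not counted, so nothing is read from it. Means were 0.21 ± 0.34 (SD, n = 2), -1.16 ± 0.81 (SD, n = 3) and -0.46 ± 0.28 (SD, n = 3), and -0.47 ± 0.19 over the 3 times (SE, n = 8). At 12 h the gene ranked among the lowest 1.78% of rows in sample 3 and 4.38% in sample 1. Within run 2 it went from 0.45 at 8 h to -1.82 at 12 h and -0.67 at 24 h, whereas within run 3 it went from -0.04 to -0.26 and -0.55, so the runs differ on whether 12 h or 24 h was lower. GLCCI1 has a single feature, 35230_1, so no second probe of the gene was measured.

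PLEK was low mainly through 1 array. Its ratios were -0.08 and 0.26 in samples 1 and 2 at 8 h, -8.93, -0.40 and -0.65 in samples 1, 2 and 3 at 12 h, and 0.46, -0.30 and -0.33 in samples 1, 2 and 3 at 24 h. Sample 1 at 12 h stands far below the others, and without it the mean over the 3 times moved from -1.10 ± 0.84 (SE, n = 8) to -0.16. The 6 values below 0 include all arrays of runs 1 and 3, where the run means were -0.49 and -0.26. Both values above 0 are run 2 arrays.

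The PLEK features do not cover the same arrays. Feature 38085_1 holds the value of -8.93 and is alone in samples 1 at 12 h and 24 h, since 26941_1 has no value there. Feature 26941_1 is alone in sample 2 at 8 h and in sample 3 at 24 h. On the 4 arrays where both were read, they were -0.16 and -0.01 in sample 1 at 8 h, -0.29 and -0.50 in sample 2 at 12 h, -0.81 and -0.49 in sample 3 at 12 h, and -0.31 and -0.30 in sample 2 at 24 h. On its own, 26941_1 had a mean of -0.27 ± 0.17 (SE, n = 6). Feature 38085_1 had too few values at 8 h for the fit.

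**Figure D1:**
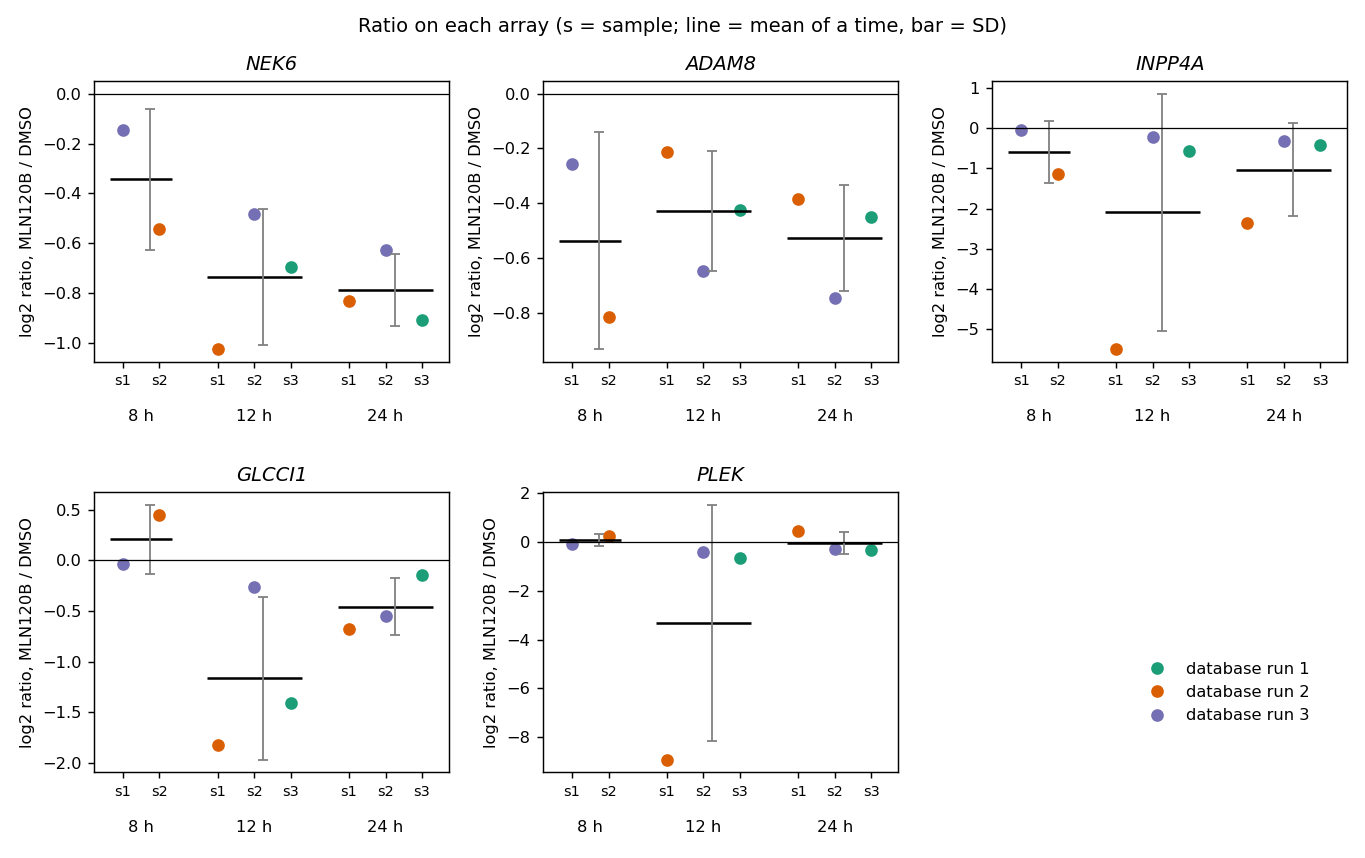
Median-centred log2 ratio (vertical axis, MLN120B over DMSO, its own scale in each panel) of each gene on each array, by time and sample; points are arrays coloured by database run, black lines are means of a time and grey bars the SD. NEK6, ADAM8 and INPP4A lie below 0 on all 8 arrays, and PLEK is at -8.93 in sample 1 at 12 h.

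**Figure D2:**
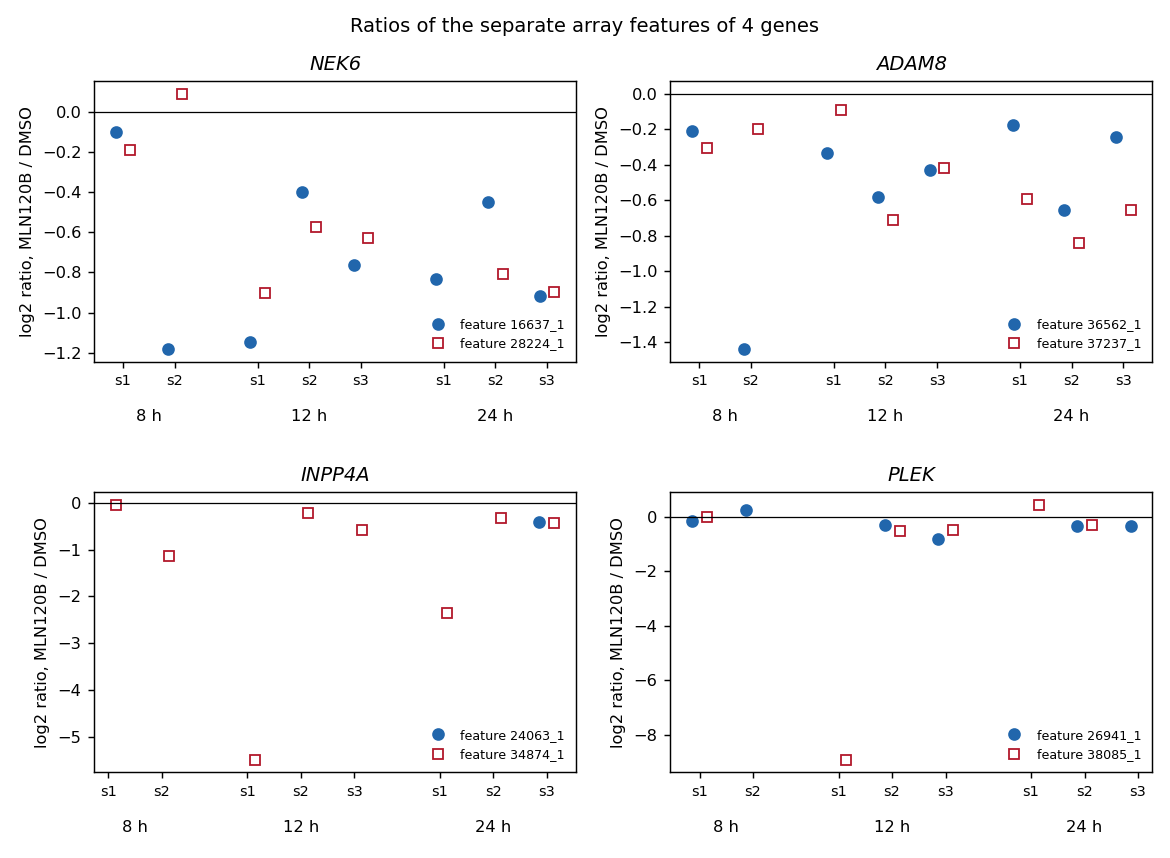
Median-centred log2 ratio (vertical axis, its own scale in each panel) of each of the 2 features of NEK6, ADAM8, INPP4A and PLEK on each array, by time and sample (horizontal axis). The features of NEK6 and of ADAM8 part most in sample 2 at 8 h, and INPP4A and PLEK rest on 1 feature on several arrays.

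Of the 5 genes, 3 (NEK6, ADAM8 and INPP4A) were below 0 on all 8 arrays, against 45 of the 3460 rows with 8 values, or 1.30%. The genes were chosen for low ratios, so nothing is read from this count. Over all 5411 rows tested, where a row is a named gene or a feature with no gene listed, limma called 0 for the mean over the 3 times, 0% at an adjusted p under 0.05, with 184 at an unadjusted p under 0.05. The count of rows called at an adjusted p under 0.05 stayed at 6 or fewer under the alternatives that keep at least 2 arrays at each time.

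**Figure D3:**
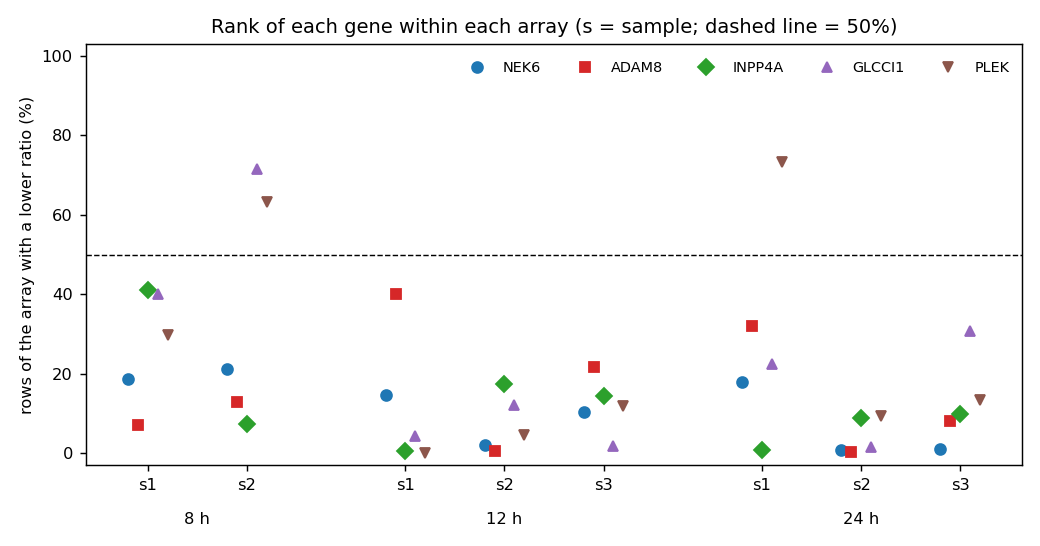
Share of the rows of an array with a lower ratio than the gene (vertical axis, percent) for each gene on each array, by time and sample (horizontal axis), with a dashed line at 50%. In sample 2 at 24 h all 5 genes lie among the lowest 9.29% of rows, and in sample 2 at 8 h GLCCI1 and PLEK lie above 50%, at 71.5% and 63.3%.

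The differences between treatment times are another contrast than the fall for which the genes were chosen, and they address whether the genes moved further with longer exposure. No difference of the 5 genes passed in limma's test, adjusted by Benjamini-Hochberg over 5411 rows. At 24 h against 8 h NEK6 differed by -0.45 ± 0.32 (SE, n = 8, interval -1.17 to 0.28, limma adjusted p = 0.987). Its averaged value was lower at 24 h in both runs that hold both times, by -0.29 in run 2 and -0.48 in run 3. In run 2, however, feature 28224_1 had no value at 24 h, so both features at 8 h are set against 16637_1 alone. Feature 16637_1 went up there, from -1.18 at 8 h to -0.83 at 24 h. By feature the NEK6 difference was -0.09 ± 0.42 for 16637_1 and -0.81 ± 0.37 for 28224_1 (SE). GLCCI1 differed by -0.66 ± 0.47 (interval -1.73 to 0.40; limma adjusted p = 0.987), by -1.13 in run 2 and -0.52 in run 3. ADAM8 differed by 0.01 ± 0.33 (interval -0.73 to 0.75, limma adjusted p = 0.997). The averaged values went opposite ways in the runs, 0.43 in run 2 and -0.49 in run 3. In run 2 the ADAM8 features also parted, 36562_1 going from -1.44 at 8 h to -0.17 at 24 h and 37237_1 from -0.20 to -0.59. In run 3 they went from -0.21 to -0.65 and from -0.30 to -0.84. By feature the ADAM8 difference was 0.47 ± 0.42 for 36562_1 and -0.45 ± 0.34 for 37237_1 (SE). For INPP4A the difference was -0.45 ± 1.42 and for PLEK -0.15 ± 2.12 (both limma adjusted p = 0.996), intervals that span several log2 units. The test called 0 of 5411 rows, 0%, with 44 at an unadjusted p under 0.05.

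At 24 h against 12 h, with 3 arrays each and the same 24 h arrays as above, NEK6 differed by -0.05 ± 0.28 (SE; 95% interval -0.70 to 0.59) and ADAM8 by -0.10 ± 0.29 (interval -0.76 to 0.56), both with a limma adjusted p of 0.9999. INPP4A differed by 1.06 ± 1.27 (interval -1.80 to 3.93), and by -0.64 without sample 1 at 12 h. PLEK differed by 3.26 ± 1.90 (interval -1.03 to 7.56; both limma adjusted p = 0.9999), and its differences within runs were 0.32, 9.39 and 0.09 in runs 1, 2 and 3. GLCCI1, singled out earlier for its 12 h value and so not tested, differed by 0.70 ± 0.42, with 1.26, 1.14 and -0.29 in runs 1, 2 and 3. Again 0 of 5411 rows, 0%, were called, with 37 at an unadjusted p under 0.05. These intervals do not show that the times were alike.

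**Figure D4:**
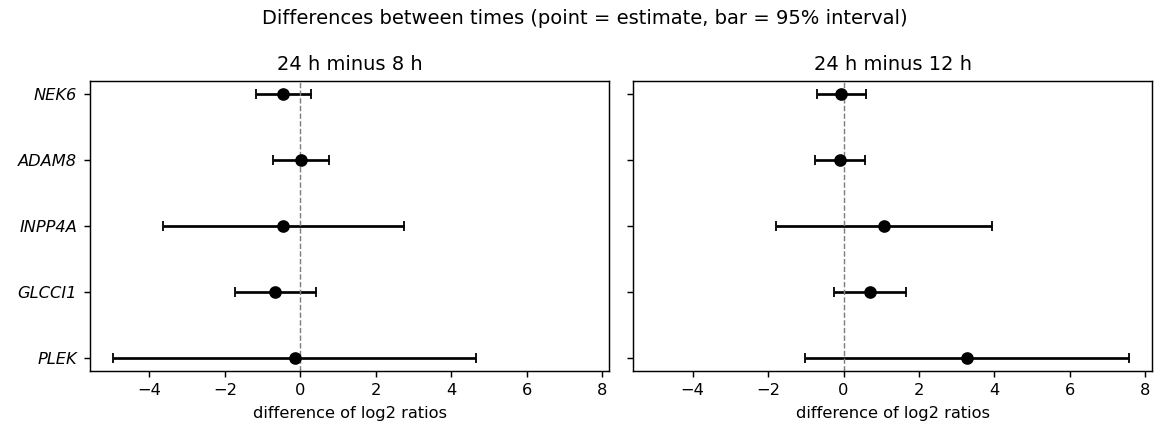
Difference of the mean log2 ratios between times (horizontal axis) for each gene, later minus earlier, with the 95% interval as a bar. All 10 intervals include 0, and those of INPP4A and PLEK are the widest.

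The 5 genes did not share 1 pattern over the arrays. With each array's ratios divided by their SD, Pearson's r over the 8 arrays ranged from -0.55 (ADAM8 and INPP4A) to 0.81 (INPP4A and PLEK) among the 10 pairs, and Spearman's rho for the latter pair was 0.07. NEK6 and ADAM8 had r = 0.73 on the scaled values and rho = -0.36 on the ranks of the unscaled ones, which differ in both scale and measure. Set against NFKBIA, the gene of the feedback inhibitor IκBα, NEK6 had r = 0.85 and rho = 0.76, and against TNFAIP3, the gene of the feedback regulator A20, r = 0.79 and rho = 0.90. ADAM8 had r = 0.70 and rho = -0.38 against NFKBIA, and r = 0.17 and rho = -0.33 against TNFAIP3. INPP4A had a high rho, 0.88, against TNFAIP3 with r = -0.06, and r = -0.53 and rho = 0.36 against NFKBIA. GLCCI1 had r = 0.41 and rho = 0.71 against NFKBIA and r = 0.21 and rho = 0.57 against TNFAIP3. PLEK had r = -0.12 and rho = 0.57 against NFKBIA and r = -0.05 and rho = 0.05 against TNFAIP3. Points share the runs and their spread, so these are descriptions of 8 arrays.

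Most like NEK6 by the same r among 2286 named genes with 8 values were CNOT9 (r = 0.96), ETS1 (r = 0.95) and TIA1 (r = 0.94). Of these, ETS1 kept a high rho, 0.71, and was below 0 on 7 of 8 arrays, with a median of -0.48, while rho was -0.10 for CNOT9 and 0.05 for TIA1. For ADAM8 the closest were BCL2L1 (r = 0.97, rho = 0.57), NECAP2 (r = 0.96, rho = 0.74) and SLC39A14 (r = 0.95, rho = 0.45). For GLCCI1 they were CCL5 (r = 0.90, rho = 0.90), CTH (r = 0.90, rho = 0.95) and BCL6 (r = 0.88, rho = 0.64), and CTH was below 0 on 8 of 8 arrays. INPP4A was closest to JUN (r = 0.94, rho = 0.40), GART (r = 0.94, rho = 0.71) and MTF2 (r = 0.93, rho = 0.90), and PLEK to SMAP2 (r = 0.99, rho = 0.98), ERCC2 (r = 0.95, rho = 0.90) and TMC6 (r = 0.95, rho = 0.71). Like INPP4A and PLEK, these genes had a lowest array far below their median: -8.59 against -0.05 for SMAP2, -3.61 against -0.11 for ERCC2, -2.41 against 0.01 for TMC6, -4.44 against -0.04 for JUN, -3.56 against -0.08 for MTF2 and -2.05 against 0.06 for GART.

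Genes that work beside the 5 were read from lists, and in no list did a gene pass over the 3 times. Among all rows tested 0% were called, the median was -0.01, and 51.6% had a mean below 0. The NIMA kinases and mitotic partners of NEK6 had a median of 0.01, with 4 of 10 tested members below 0. Among them PLK1, a mitotic kinase, was at -0.39 ± 0.21 (SE, n = 8) and AURKB, the kinase of the chromosomal passenger complex, at -0.35 ± 0.22. PLK1 and AURKB had medians of -0.08 and -0.15, beside lowest arrays of -1.45 and -1.96. The list's array medians ranged from -0.10 to 0.13 at 8 h, -0.28 to 0.19 at 12 h and -0.17 to 0.10 at 24 h. NEK6 itself was lower than that on 8 of 8 arrays.

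The ADAM proteases with their inhibitors and substrates had a median of 0.03 over 11 tested members, 5 of them below 0. ADAM19, a metalloprotease related to ADAM8, was at -0.30 ± 0.15 (SE, n = 8) and below 0 on 6 of 8 arrays, and ADAM12 was at -0.24 ± 0.17 and below 0 on 4. ADAM19 and ADAM12 had medians of -0.15 and -0.08, beside lowest arrays of -1.255 and -1.345. Phosphoinositide kinases and phosphatases had 9 of 12 tested members below 0 and a median of -0.12, which ran from -0.15 to -0.06 with 1 array left out and was -0.02 without run 2. In this list AKT1, the kinase recruited by phosphoinositides, was at -0.50 ± 0.23 and PIK3R1, the regulatory subunit of the lipid kinase, at -0.37 ± 0.24. AKT1 and PIK3R1 had medians of -0.23 and -0.22, beside lowest arrays of -1.82 and -1.475. The list's array medians were -0.33 to -0.25 in run 2 and -0.06 to 0.04 on the other arrays, so this list, like INPP4A, was lower in run 2.

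The glucocorticoid receptor and its response genes had a median of -0.02, with 7 of 12 tested members below 0. Its array medians at 12 h ran from -0.16 to 0.30, beside a GLCCI1 mean of -1.16 at that time. KLF9, a factor induced by glucocorticoids, was at 0.25 ± 0.13 (SE, n = 8) and HSP90AB1, a chaperone of the receptor, at 0.20 ± 0.13. KLF9 and HSP90AB1 had medians of 0.28 and 0.08. The protein kinase C pathway of pleckstrin had 8 of 15 tested members below 0 and a median of -0.003, with PRKCD at -0.41 ± 0.20 and PRKCB at -0.23 ± 0.13. The medians of these 2 genes were -0.05 and -0.18, beside lowest arrays of -1.93 and -0.83. Both encode protein kinase C isoforms.

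For comparison, all 9 tested NF-κB targets of the study's signature other than PLEK were below 0 on average, and the list's median was -0.71. NFKBIA was at -0.93 ± 0.14 (SE, n = 8) and TNFAIP3 at -0.84 ± 0.18, both below 0 on 8 of 8 arrays, as NEK6, ADAM8 and INPP4A were. This list was chosen in part on these arrays, so it is no independent evidence of direction. Markers of plasma cells were mostly above 0, with a median of 0.22 (0.09 as deposited, 0.06 after quantile normalization and 0.09 with array weights), 6 of 9 members above 0, and TNFRSF17, the receptor BCMA, at 0.48 ± 0.16 and PRDM1, the plasma cell regulator Blimp-1, at 0.31 ± 0.12.

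ADAM8 and PLEK are also expressed by myeloid cells, and the markers of that lineage were read beside them. The 5 tested myeloid markers of 8 listed had a median of 0.08, which changed sign with the array left out (-0.10 to 0.31; -0.09 without sample 2 at 8 h), and array medians from 0.02 to 0.68 at 8 h, -0.58 to 0.04 at 12 h and -0.91 to 0.09 at 24 h. Of the 5, 2 were below 0 and 3 above. CD68 was at -0.50 ± 0.29 (SE, n = 8) and TYROBP at 0.23 ± 0.16 (n = 7). The median of CD68 was -0.20, beside a lowest array of -2.63. The 7 tested T cell markers of 8 listed had a median of -0.20, with 4 below 0 and 3 above. This median was 0.02 without sample 2 at 8 h, -0.55 without sample 2 at 24 h, -0.60 without sample 3 at 24 h and -1.17 without run 3. Array medians were -0.70 to 0.01, -0.11 to 0.10 and -0.12 to 0.20 at the 3 times. CD3E was at -0.60 ± 0.34 and GATA3 at -0.75 ± 0.54 (SE, n = 8), each below 0 on 5 of 8 arrays. Their medians were -0.07 and -0.045, beside lowest arrays of -3.78 and -5.10. The labels name no cells other than the L363 line, and ratios do not show whether a marker is present at all. Whether any other cells had a part in the 5 genes' ratios was not tested.

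**Figure D5:**
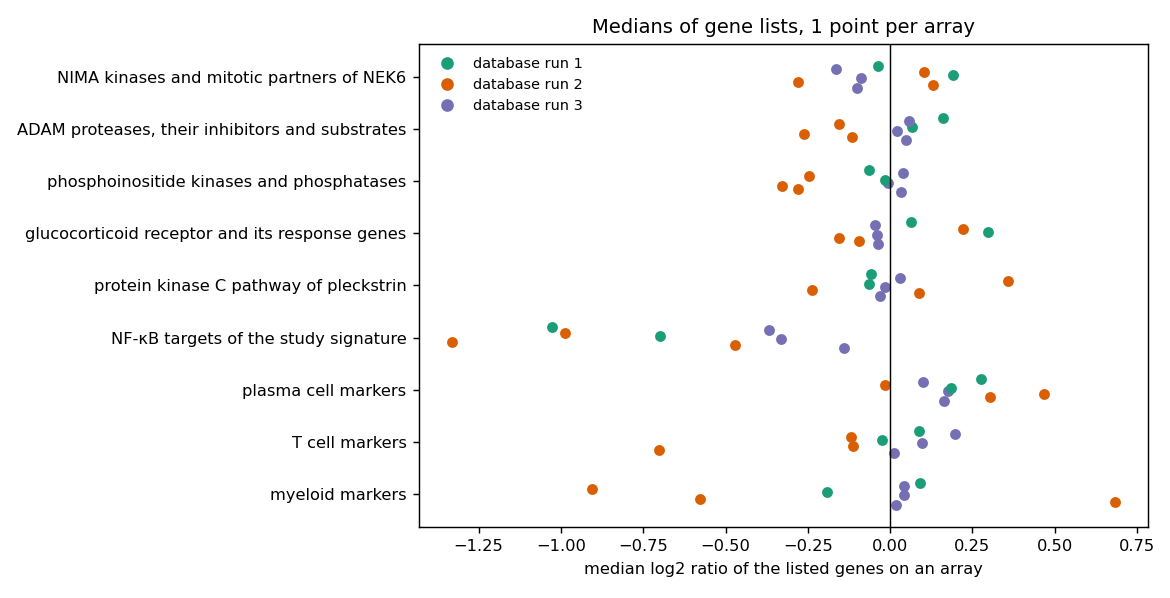
Median log2 ratio (horizontal axis) of the tested genes of each list (vertical axis) on each array, 1 point per array coloured by database run. The NF-κB targets lie below 0 on 8 of 8 arrays, while the lists of partner genes lie on both sides of 0.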

How the data were processed

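The deposited values are log2 ratios of the 2 channels of each array, with steps and builds not given in the sources used here. Base 2 is assumed from the largest sizes. Each array was centred on its median, and features of a gene were averaged. Current symbols came from the Entrez identifier for 10128 features and from the accession for 17, and 24 kept the annotated symbol (RefSeq, GRCh38.p14, names only); 5073 features had no gene listed and 4 had several. Rows with at least 2 values at each time, 5411, entered 1 fit of all 8 arrays with a mean per time (limma 3.58.1, R 4.3.3, lmFit and eBayes, 2-sided, Benjamini-Hochberg, threshold 0.05, 5 residual degrees of freedom). A trial on simulated rows gave every array the same spread and no run effect, unlike these arrays, so it does not show how the fit behaves here. The ratio to DMSO leaves out the control's own spread. Tables and plots used Python 3.11.15, pandas 2.3.3 and matplotlib 3.10.9.

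Members and gene lists were chosen with earlier results of these data known. The text names every feature of the members, the 3 genes closest to each by Pearson's r over 8 arrays, and the 2 genes with the smallest p in each list. Same-numbered samples at 12 h and 24 h deviated together (r of 0.20, 0.26 and 0.30 over 3460 rows) and share a database run, so they pair for that comparison; with 8 h included the range was -0.32 to 0.30, and the numbers do not pair. Arrays of 1 database run deviated together in all 7 pairs, 8 h included (0.15 to 0.32). With 2 arrays at 8 h, their deviations from the time mean mirror each other. The 8 h values by run and by sample number are therefore the same values with the sign turned, and do not count separately. The series describes 3 time courses; whether the runs are these courses is not stated, and the fit has no run term, which is an alternative. Alternatives were other normalizations, filters, blocks and weights, each feature alone, and each run or sample left out.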

Additional observations from a re-analysis of the deposited data

Results flagged for a closer look

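No time has 4 or more samples, so no sample was tested as standing apart from its group. The genes named here come from the lists of partner genes and markers. Each was on one side of 0 in all samples with a value at a time, and on the other side at another time. With 2 or 3 samples at a time, and the share of all rows that meet this rule not counted, nothing is read from the separation.

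ADAM12 read 0.466, 0.021 and 0.068 in samples 1, 2 and 3 at 12 h and -1.35, -0.28 and -0.18 in samples 1, 2 and 3 at 24 h, a difference of -0.79 ± 0.39 that did not pass (limma adjusted p = 0.9999). KLF9 read -0.215 and -0.089 in samples 1 and 2 at 8 h, 0.42, 0.12 and 0.67 in samples 1, 2 and 3 at 12 h, and 0.87, 0.15 and 0.44 at 24 h. Its difference of 24 h against 8 h, 0.64 ± 0.34, did not pass (limma adjusted p = 0.987), and 12 h against 8 h was not tested. TYROBP read 0.018 and 0.879 in samples 1 and 2 at 8 h, -0.10 and -0.19 in samples 2 and 3 at 12 h, and 0.79, 0.17 and 0.25 in samples 1, 2 and 3 at 24 h. For 24 h against 12 h it differed by 0.55 ± 0.39, which did not pass (limma adjusted p = 0.9999); 12 h against 8 h was not tested.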

How the results depend on the processing

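The mean over the 3 times stayed below 0 for the 5 genes under every alternative run, 22 for NEK6 and ADAM8 and 21 for the others, from -1.003 to -0.50 for NEK6, -1.06 to -0.40 for ADAM8, -1.85 to -0.26 for INPP4A, -0.65 to -0.29 for GLCCI1 and -1.59 to -0.16 for PLEK. Leaving out the centring moved the median of all rows from -0.008 to -0.117. Quantile normalization moved it to -0.143, called 6 of 5411 rows for the mean over the 3 times and gave -1.003 for NEK6 and -1.06 for ADAM8; the cause was not tested. With 1 array left out the means ran from -0.69 to -0.56 for NEK6, -0.59 to -0.40 for ADAM8, -1.55 to -0.67 for INPP4A, -0.62 to -0.36 for GLCCI1 and -1.59 to -0.16 for PLEK. The difference of 24 h against 8 h for ADAM8, close to 0, turned to -0.10 as deposited, -0.52 after quantile and -0.18 after scale normalization, -0.01 with the replicate block of sample numbers and -0.01 with the run as a fixed block, -0.07 with array weights, -0.028 without run 1, -0.34 without run 2 and -0.45 for feature 37237_1. That of INPP4A turned to 0.15 with array weights. For 24 h against 12 h NEK6 turned to 0.025 without run 1 and 0.038 for feature 16637_1, and ADAM8 to 0.09 for feature 36562_1. With 1 array left out, 24 h against 8 h ranged from -0.65 to -0.25 for NEK6, -0.27 to 0.29 for ADAM8, -0.99 to 0.22 for INPP4A, -0.91 to -0.42 for GLCCI1 and -0.41 to 0.024 for PLEK. The ranges for 24 h against 12 h were -0.20 to 0.072, -0.21 to 0.012, -0.64 to 2.01, 0.38 to 1.15 and 0.46 to 4.73 in the same order. None of the 9 differences tested for the 5 genes passed under any alternative. The count of rows called at 24 h against 8 h, 0, became 3 with at least 1 value at each time, 11 without run 3 and 77 without sample 1 at 8 h, the latter leaving 1 array at 8 h that is assumed to vary like the others (0 to 77 over arrays left out); at 24 h against 12 h it was 0 under every alternative. For the mean over the 3 times the count of 0 also became 2 with at least 1 value at each time, 6 with the run as a fixed block, 10 of 3644 rows without run 3 and 58 of 5628 without sample 1 at 8 h. The replicate block changed no count of calls. With 1 array left out, list medians changed sign for the partners of NEK6 (-0.055 to 0.052), ADAM8 (-0.025 to 0.084), GLCCI1 (-0.049 to 0.028) and PLEK (-0.074 to 0.073), and not for those of INPP4A; quantile normalization gave -0.23 for the partners of NEK6 and -0.20 for those of PLEK. Signal over background is unknown.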

Other observations

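Of 2286 named genes with values on all 8 arrays, 34 were below 0 on every one, NEK6, ADAM8 and INPP4A among them. By their median ratio NFKB2 (-0.96), NFKBIA (-0.96), TNFAIP3 (-0.81) and WNT10A (-0.74) were lower than NEK6 (-0.66). RGS16, a regulator of G protein signalling, followed at -0.61, HLA-DPA1, an MHC class II chain, at -0.45, and PIM1, a survival kinase, at -0.32. These genes were chosen after their values were seen, and no test was made on them.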
